A study of Mus musculus with 10 samples.

Results

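The axon guidance families described here are the semaphorins, their plexin and neuropilin receptors, the Eph receptor tyrosine kinases and the ephrins, read in mouse basal cell carcinoma (BCC) cells treated with an inhibitor of the TGFß receptor kinase ALK5 or of the transcription factor AP-1. Genes were taken by symbol (Sema3 to Sema7, Plxn, Nrp1 and Nrp2, Epha and Ephb, Efna and Efnb) and kept where the mean over all libraries of at least 1 experiment reached 0.5 RPKM, which is the number of reads per kilobase of transcript scaled to sequencing depth. Of 50 such genes listed in either experiment, 32 were kept, among 15997 genes named in both. They are 3 secreted semaphorins (Sema3c, Sema3e and Sema3f), 8 membrane semaphorins (Sema4a, Sema4b, Sema4c, Sema4d, Sema4f, Sema5a, Sema6a and Sema6c), 5 plexins (Plxna1, Plxna2, Plxna3, Plxnb1 and Plxnb2), both neuropilins, 4 EphA receptors (Epha1, Epha2, Epha4 and Epha7), 3 EphB receptors (Ephb3, Ephb4 and Ephb6), 5 ephrin-A genes (Efna1 to Efna5) and 2 ephrin-B genes (Efnb1 and Efnb2).

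ASZ001 is a single murine BCC cell line, and all libraries come from it. In the SB431542 experiment the cells received vehicle (DMSO, n = 3 libraries) or 10 µM of the ALK5 inhibitor SB431542 (n = 3) for 24 h. In the T-5224 experiment they received DMSO (n = 2) or 20 µM of the AP-1 inhibitor T-5224 (n = 2) for 24 h. The treatment medium of every group was 154CF with little serum and calcium, the doses were not the same, and each inhibitor had DMSO libraries of its own, so that the comparisons share no library. Comparing each inhibitor with its DMSO libraries asks which transcripts of these cells depend on ALK5 or on AP-1 activity.

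Semaphorins signal through plexins, which act on small GTPases, and the secreted class 3 members mostly need a neuropilin as the ligand-binding subunit. Eph receptors bind ephrins on the surface of a neighbouring cell and signal in both directions, EphA receptors mainly with the lipid-anchored ephrin-A proteins and EphB receptors mainly with the transmembrane ephrin-B proteins. Outside the nervous system these families act in cell sorting, adhesion, migration and vessel growth, and several Eph receptors and ephrins are expressed in epidermis and hair follicle.

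The ASZ001 libraries carried the markers of basal keratinocytes, 6 of 6 at 0.5 RPKM or more in each experiment. Of 4 endothelial markers, 1 reached that level (Pecam1), of 4 fibroblast markers 1 (Dcn), and of the neuronal and the immune markers 0 of 4 each. Smad7, a known TGFß target, served as a check of the ALK5 inhibitor, and its log2 fold change there was −0.80 (adjusted p = 0.00206 by limma). Depth read from the steps of low values lay between 31.7 and 51.0 M reads, where 1 read on a transcript of 4 kb is worth 0.00789 to 0.0049 RPKM. DMSO replicate 1 of the SB431542 experiment stood apart. Its deviations from the mean of the other DMSO libraries there had an SD of 0.232 (log2 scale, over the members). Taken the same way, the SD was 0.105 and 0.158 for DMSO replicates 2 and 3.

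In DMSO the most abundant member of most classes was the same gene in both experiments. The exceptions were the EphA receptors, led by Epha2 in the SB431542 experiment and by Epha1 in the T-5224 experiment, and the ephrin-A genes, led by Efna5 and Efna1. Plxnb2, a receptor of class 4 semaphorins, was the highest of the plexins at 106 ± 4.11 RPKM (SD, n = 3) and 119.6 ± 2.93 RPKM (SD, n = 2), and made up 58.8% and 59.1% of the summed plexin RPKM. Sema3c, a secreted ligand that binds both neuropilins, was at 105 ± 4.95 RPKM (SD, n = 3) and 52.7 ± 4.26 RPKM (SD, n = 2). Nrp2 supplied 87.2% and 94.6% of the neuropilin sum. Among EphB receptors, Ephb4 gave 56.0% and 50.9%, and Efnb2, its preferred ligand, gave 67.5% and 69.3% of the ephrin-B sum. No test was made between the DMSO libraries of the experiments, because a difference between them cannot be told apart from one between the experiments.

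The family genes under the threshold were 18, of which 12 stayed under 0.1 RPKM in every library, among them Ephb1, Ephb2, Epha3, Plxna4 and Plxnc1. The highest of the 18 in any library was Sema3d at 1.13 RPKM. Just outside the threshold, Sema3d read 0.564, 0.631 and 0.599 RPKM in DMSO and 0.159, 0.095 and 0.170 RPKM with SB431542, and 0.796 and 1.13 RPKM in DMSO and 0.021 and 0.040 RPKM with T-5224. The member nearest to it on the inside, Sema5a, had means of 1.13 and 0.749 RPKM over the libraries of the SB431542 and the T-5224 experiment. In the former it read 1.06, 1.09 and 1.20 RPKM in DMSO and 1.21, 1.08 and 1.16 RPKM with SB431542. Plxnd1, the receptor that Sema3e binds without a neuropilin, was also under the threshold.

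Most of these genes were lower with T-5224. At an adjusted p under 0.05 (limma, on log2(RPKM + 0.5), two-sided, adjusted over all genes tested), 25 of the 32 members (78.1%) were lower, and 4 (12.5%) had risen, where 39.6% of the 11516 genes tested were lower and 39.1% higher. With the further limit of more than 2-fold, 16 members (50%) were lower and 3 (9.38%) higher, against 10.9% and 10.3% of all genes. Over the members the median log2 fold change came to −0.97, beside −0.0053 for all genes, and the median size of the change was 1.18 beside 0.51. In 25 members both T-5224 libraries lay below both DMSO libraries, in 4 both lay above, and in 3 (Sema3c, Sema3e and Plxna3) the groups overlapped. This split was not counted over all genes, so it has no background to be read against. The log2(RPKM + 0.5) scale understates the change of genes with low values.

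**Figure D1:**
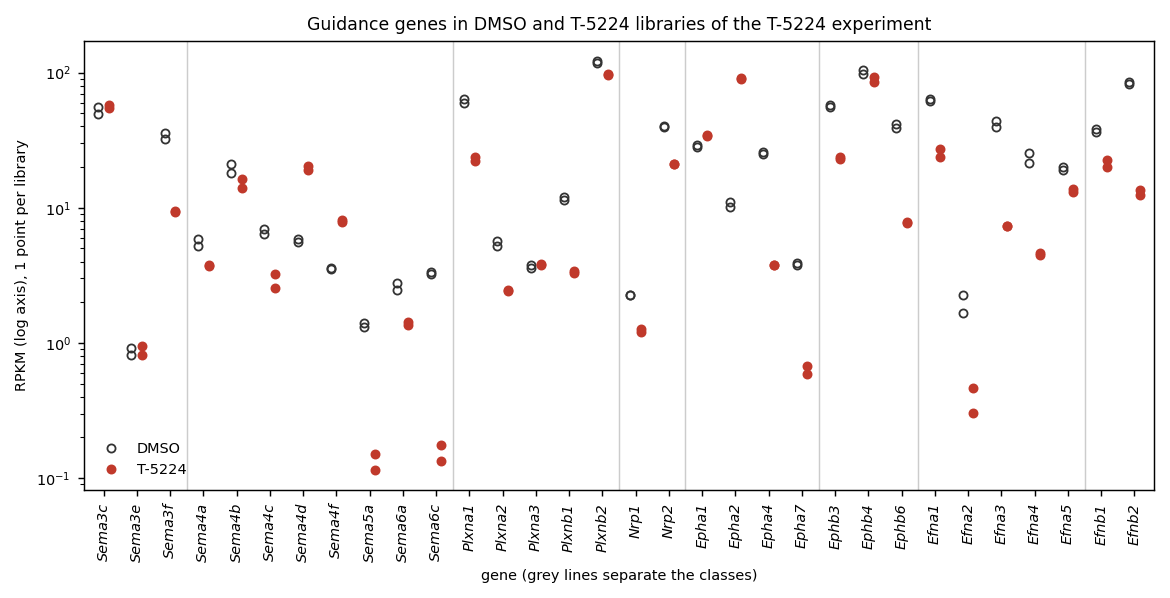
RPKM of each of the 32 members in each library of the T-5224 experiment (log axis), with open circles for the 2 DMSO libraries and filled circles for the 2 T-5224 libraries. Most filled circles sit below the open ones, while Epha2 goes from 11.0 and 10.1 to 90.8 and 90.5 RPKM.

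Markers of basal keratinocytes moved with the T-5224 comparison as well. All 6 of the list were lower, and their summed level was 11940 to 12590 RPKM in DMSO and 1690 to 1748 RPKM with T-5224, mostly through the keratins Krt5 and Krt14. The endothelial list fell from 10.9 to 11.97 RPKM down to 4.13 to 4.67 RPKM, nearly all of it Pecam1, with Cdh5 at no more than 0.013 RPKM and no value listed for Kdr. Of the fibroblast list, Dcn was higher (0.35, adjusted p = 0.0158), and the sum, mostly Dcn, was 2.53 to 2.58 RPKM in DMSO and 2.60 to 2.82 RPKM with T-5224. Other genes of that list went the other way or were near 0, all too low to be tested. Pdgfra went from 0.450 and 0.580 to 0.116 and 0.133 RPKM, and Col1a2 from 0.090 and 0.190 to 0.011 and 0.031 RPKM. Col1a1 was at no more than 0.020 RPKM. The part of these markers in the changes of the guidance genes was not tested. In bulk RNA, fewer cells of a kind and less RNA per cell cannot be told apart.

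Promoter sequence was read for 3 members: Epha2 and Efnb2, with the largest rise and the largest fall on the log2(RPKM + 0.5) scale with T-5224, and Sema4c, for its match to the AP-1 motif. The windows are the 250 bases before the start of the RefSeq transcript in GRCm38.p6, a later build than the mm9 of the expression tables, and are written 5′ to 3′ on the strand of the gene. Capitals mark a match to the cAMP response element TGACGTCA in Epha2 (chr4:141300971-141301220, plus strand, 33 to 26 bases before the start) and to the AP-1 site TGACTCA in Sema4c (chr1:36558382-36558631, minus strand, 22 to 16 bases before the start). The Efnb2 window (chr8:8661243-8661492, minus strand) holds neither and so has no capitals.
Epha2: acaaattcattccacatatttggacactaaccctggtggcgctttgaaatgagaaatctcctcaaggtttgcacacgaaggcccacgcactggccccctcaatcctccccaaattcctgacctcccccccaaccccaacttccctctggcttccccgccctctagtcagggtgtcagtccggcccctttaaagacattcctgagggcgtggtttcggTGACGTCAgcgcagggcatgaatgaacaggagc
Efnb2: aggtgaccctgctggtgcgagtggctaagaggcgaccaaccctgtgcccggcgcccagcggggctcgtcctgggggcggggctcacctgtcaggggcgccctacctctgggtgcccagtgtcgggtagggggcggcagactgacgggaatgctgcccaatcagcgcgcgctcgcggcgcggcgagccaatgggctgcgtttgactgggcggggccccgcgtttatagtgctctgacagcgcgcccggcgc
Sema4c: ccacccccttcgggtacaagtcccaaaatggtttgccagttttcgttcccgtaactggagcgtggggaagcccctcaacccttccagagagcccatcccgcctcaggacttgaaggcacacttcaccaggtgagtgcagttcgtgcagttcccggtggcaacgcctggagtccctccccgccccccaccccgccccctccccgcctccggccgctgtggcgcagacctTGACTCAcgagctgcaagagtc

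RefSeq promoters were at hand for 29 of the 32 members, as 41 windows. The letters TGACTCA, on either strand, were in 1 of 41 (2.44%, Sema4c), beside 4.46% of all 32851 windows of this length. TGACGTCA was in 1 of 41 (2.44%, Epha2), beside 1.55% of all windows. The short SMAD core CAGAC was in 21 of 41 (51.2%), from 16 genes, beside 42.2% of all windows, and its letters can overlap the end of either other motif. A match to these letters is a description of the window and not a measured binding site.

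Epha2 rose the most of all members, and most of its family went the other way. Epha2, an Eph receptor of epithelia that binds ephrin-A1, lies on mm9 chromosome 4 from 140857155 to 140885299 on the plus strand, behind the promoter printed above. It was at 11.0 and 10.1 RPKM in DMSO and at 90.8 and 90.5 RPKM with T-5224. Both treated libraries were far above both controls, an 8.60-fold higher mean RPKM, with a log2 fold change of 3.05 (SE 0.06, adjusted p = 1.50e-10). Its share of the RPKM summed over all 7 Eph receptors went from 3.70 and 4.23% in DMSO to 35.7 and 36.9% with T-5224.

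Epha1, the other EphA gene that was higher, changed less. It was at 28.1 and 29.3 RPKM in DMSO and 34.9 and 33.9 RPKM with T-5224. The groups did not overlap, and the log2 fold change was 0.26 (SE 0.06, adjusted p = 0.00203). Epha4, which accepts ephrins of both classes, stands on chromosome 1 from 77363760 to 77511663. It had 25.1 and 25.8 RPKM in DMSO and 3.75 and 3.77 RPKM with T-5224. Every treated library was below every control, with a 6.77-fold lower mean and a log2 fold change of −2.61 (SE 0.07, adjusted p = 7.67e-10). Epha7, a further receptor of ephrin-A ligands, had 3.87 and 3.76 RPKM in DMSO and 0.679 and 0.593 RPKM with T-5224. Again the treated libraries lay below, and the log2 fold change was −1.93 (SE 0.11, adjusted p = 1.59e-07). As the rise of Epha2 outweighed these falls, the summed RPKM of the EphA receptors was 1.89 times as high with T-5224, 129.4 ± 0.943 against 68.5 ± 0.632 RPKM (SD, n = 2 each).

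All 3 EphB receptors were lower with T-5224, to very different degrees, beside 39.6% of all genes tested. Ephb6, which lacks kinase activity, is encoded on chromosome 6 from 41555481 to 41570508. It was at 38.9 and 41.7 RPKM in DMSO and 7.77 and 7.82 RPKM with T-5224. This 5.17-fold lower mean, with no overlap, had a log2 fold change of −2.30 (SE 0.06, adjusted p = 1.01e-09). Ephb3, an active kinase, was at 55.8 and 58.0 RPKM in DMSO and 23.8 and 22.8 RPKM with T-5224. Its groups lay apart by more than 2-fold, with a log2 fold change of −1.27 (SE 0.06, adjusted p = 2.19e-08). Ephb4, the receptor best known from the border of arteries and veins, was the most abundant Eph gene in DMSO at 97.2 and 104 RPKM. It had 92.5 and 85.6 RPKM with T-5224. Here the gap between the groups was narrow, the log2 fold change was −0.17 (SE 0.06, adjusted p = 0.0201), and the call was lost without DMSO replicate 2 (adjusted p = 0.116) or T-5224 replicate 2 (0.152).

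Each of the 7 ephrin ligands was lower with T-5224, 5 of them more than 2-fold, beside 39.6% and 10.9% of all genes tested. Efnb2, the transmembrane ligand that binds EphB4, had the largest fall of all members on the log2(RPKM + 0.5) scale and lies on chromosome 8 from 8617434 to 8661239 on the minus strand. It was at 81.9 and 85.7 RPKM in DMSO and 13.6 and 12.4 RPKM with T-5224. The treated libraries had 6.45-fold less on average, a log2 fold change of −2.64 (SE 0.06, adjusted p = 3.92e-10). Efnb1, the other ephrin-B gene, was lower as well at −0.79 (adjusted p = 2.25e-06), with libraries of the treated group between 20.1 and 22.4 RPKM and controls between 36.3 and 38.1 RPKM. The ephrin-B sum was thus 121.0 ± 3.86 RPKM in DMSO and 34.2 ± 2.47 RPKM with T-5224 (SD, n = 2 each), and the share of Efnb2 among all ephrins went from 30.8 and 31.3% to 15.1 and 15.3%.

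Of the ephrin-A genes, Efna1, Efna3 and Efna4 are neighbours on chromosome 3, all on the minus strand, Efna1 from 89075655 to 89085064, Efna3 from 89117821 to 89126887 and Efna4 from 89137312 to 89141950. Efna1, a ligand of EphA2, was at 61.2 and 63.9 RPKM in DMSO and 27.1 and 23.8 RPKM with T-5224. Efna3 was at 39.6 and 43.6 RPKM in DMSO and 7.33 and 7.38 RPKM with T-5224. Efna4 was at 21.3 and 25.4 RPKM in DMSO and 4.64 and 4.44 RPKM with T-5224. In each of these 3 neighbours both treated libraries lay far below both controls. The fall was the smallest for Efna1, at a log2 fold change of −1.28 (SE 0.07, adjusted p = 7.80e-08). It was −2.42 for Efna3 (SE 0.07, adjusted p = 1.01e-09). For Efna4 it was −2.24 (SE 0.09, adjusted p = 1.12e-08). The gene bodies of the 3 do not overlap in this annotation.

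Efna2 and Efna5 lie on other chromosomes, 10 and 17. Efna2, the scarcest ephrin, was at 1.68 and 2.26 RPKM in DMSO and 0.461 and 0.302 RPKM with T-5224. The groups lay apart, and the log2 fold change was −1.48 (SE 0.16, adjusted p = 1.34e-05). Efna5, a ligand of EphA receptors with a well-known part in mapping of retinal axons, was at 19.9 and 18.9 RPKM in DMSO and 13.1 and 13.7 RPKM with T-5224. Its fall was the smallest of the class, at −0.52 (SE 0.07, adjusted p = 4.32e-05). As the other ephrins fell further, its share of the summed ephrin RPKM went from 6.80 and 7.59% to 14.8 and 16.7%. The ephrin-A sum was 148.9 ± 7.26 RPKM in DMSO and 51.1 ± 2.06 RPKM with T-5224 (SD, n = 2 each).

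**Figure D2:**
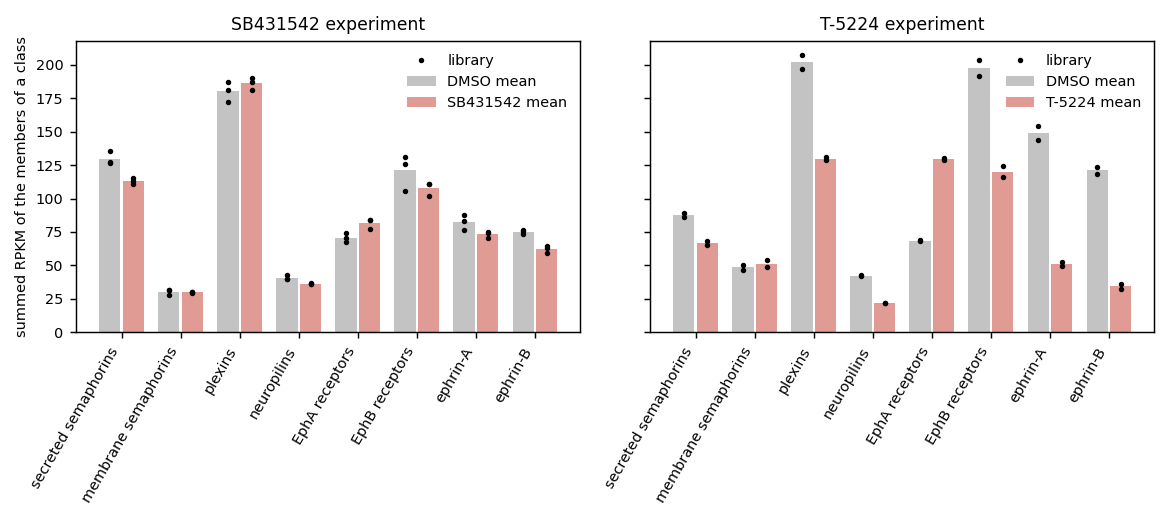
RPKM summed over the members of each class, with bars for the mean of a group and points for single libraries, in the SB431542 experiment (left, n = 3 each) and the T-5224 experiment (right, n = 2 each). With T-5224 the sums of both ephrin classes drop to 0.343 and 0.283 times DMSO while the EphA sum goes to 1.89 times, and with SB431542 all ratios lie between 0.827 and 1.16.

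The secreted semaphorins did not move together. Sema3f, which signals mainly through neuropilin-2, is on chromosome 9 from 107583833 to 107612806. It was at 32.4 and 35.9 RPKM in DMSO and 9.33 and 9.48 RPKM with T-5224. The treated libraries lay 3.63-fold lower on average, with a log2 fold change of −1.81 (SE 0.07, adjusted p = 8.12e-09). Sema3c, the most abundant semaphorin, was at 55.7 and 49.7 RPKM in DMSO and 58.1 and 54.6 RPKM with T-5224. These groups overlapped, the log2 fold change was 0.10 with a 95% interval of −0.05 to 0.25 (adjusted p = 0.198), and it passed without DMSO replicate 1 (log2 fold change 0.18, adjusted p = 0.0214). Sema3e, at under 1 RPKM in all 4 libraries, did not pass either, with an interval of −0.28 to 0.33.

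Among the 8 membrane semaphorins, 6 were lower and 2 higher with T-5224, beside 39.6% and 39.1% of all genes tested. Sema4d, a ligand of plexin-B1 that is also known from immune cells, lies on chromosome 13 from 51796615 to 51889116. It was at 5.91 and 5.58 RPKM in DMSO and 20.5 and 19.0 RPKM with T-5224. That 3.44-fold higher mean, with all treated libraries above all controls, had a log2 fold change of 1.70 (SE 0.07, adjusted p = 1.99e-08). Sema4f, a related transmembrane semaphorin, was at 3.58 and 3.53 RPKM in DMSO and 8.14 and 7.84 RPKM with T-5224. It also stood clear of its controls, at a log2 fold change of 1.07 (SE 0.08, adjusted p = 1.11e-06). The share of Sema4d in the summed semaphorin RPKM went from 4.08 and 4.36% to 16.7 and 16.8%.

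Sema6c, a transmembrane ligand of A-type plexins, had the largest fall among the semaphorins tested, on the log2(RPKM + 0.5) scale. It was at 3.25 and 3.36 RPKM in DMSO and 0.176 and 0.134 RPKM with T-5224. Its treated libraries lay far below, the log2 fold change was −2.54 (SE 0.12, adjusted p = 4.65e-08), and the mean RPKM was 21.3-fold lower with T-5224. Sema5a, which carries thrombospondin repeats outside the cell, was at 1.32 and 1.41 RPKM in DMSO and 0.151 and 0.115 RPKM with T-5224. The treated libraries lay far below, 10.3-fold in mean RPKM, and on the scale with the pseudocount of 0.5 the log2 fold change was −1.56 (SE 0.14, adjusted p = 3.66e-06). Sema4c, a ligand of plexin-B2 and the member with the AP-1 letters in its promoter, was at 6.42 and 6.96 RPKM in DMSO and 3.23 and 2.57 RPKM with T-5224, again with no overlap. Its log2 fold change was −1.09 (SE 0.11, adjusted p = 8.34e-06).

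The other 3 membrane semaphorins passed the test under the 2-fold limit. Sema4b, the highest of the class in DMSO, was at 18.2 and 21.2 RPKM there and 16.4 and 14.1 RPKM with T-5224. The lower control and the higher treated library were close, the log2 fold change was −0.36 (SE 0.09, adjusted p = 0.00507), and the call was lost without T-5224 replicate 2 (adjusted p = 0.067). Sema4a was at 5.21 and 5.86 RPKM in DMSO and 3.78 and 3.69 RPKM with T-5224. This gave a log2 fold change of −0.51 (SE 0.09, adjusted p = 0.000542) with groups that lay apart. Sema6a, a ligand of plexin-A2 and plexin-A4, was lower by a similar step (−0.73, adjusted p = 0.000191). With Sema4d and Sema4f up and the others down, the summed RPKM of the membrane semaphorins was 48.5 ± 2.63 in DMSO and 51.3 ± 3.48 with T-5224 (SD, n = 2 each).

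On the receptor side, 4 of 5 plexins and both neuropilins were lower with T-5224, beside 39.6% of all genes tested. Plxna1, which pairs with neuropilins to receive class 3 semaphorins, was at 59.2 and 64.4 RPKM in DMSO and 23.7 and 22.2 RPKM with T-5224. Its libraries did not overlap, with a log2 fold change of −1.41 (SE 0.06, adjusted p = 2.33e-08). Plxnb1, the receptor of Sema4d, was at 11.4 and 12.1 RPKM in DMSO and 3.29 and 3.42 RPKM with T-5224. So the receptor had a log2 fold change of −1.66 (SE 0.08, adjusted p = 4.17e-08) in the same libraries in which its ligand was higher. Plxna2 was at 5.20 and 5.70 RPKM in DMSO and 2.46 and 2.41 RPKM with T-5224. It passed the 2-fold limit narrowly, at −1.02 (SE 0.09, adjusted p = 4.28e-06).

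Plxnb2, the most abundant plexin, was at 118 and 122 RPKM in DMSO and 97.8 and 96.7 RPKM with T-5224. With a log2 fold change of −0.30 (SE 0.05, adjusted p = 0.000315) it fell less than the other 3 called plexins, and its share of the plexin sum went from 58.6 and 59.7% to 74.7 and 75.2%. Plxna3 overlapped between groups, with a 95% interval of −0.16 to 0.24. Nrp2, a coreceptor for Sema3f and for VEGF-C, was at 40.4 and 39.7 RPKM in DMSO and 21.0 and 20.9 RPKM with T-5224. The libraries of a group nearly coincided, and the log2 fold change was −0.92 (SE 0.06, adjusted p = 1.93e-07). Nrp1, the coreceptor for Sema3a and VEGF-A, was at 2.27 and 2.27 RPKM in DMSO and 1.26 and 1.20 RPKM with T-5224, also without overlap. Its log2 fold change was −0.68 (SE 0.11, adjusted p = 0.000269).

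With SB431542 none of the members tested passed 2-fold. Of 31 members tested, 5 (16.1%) were lower and 3 (9.68%) were higher by the same limma test and threshold, beside 9.81% and 9.68% of the 11509 genes tested. The share that was higher equalled that of all genes. Sema6c, at a mean of 0.436 RPKM in this experiment, was not tested, and its mean RPKM was 2.70-fold lower with SB431542, every treated library being below every control. More than 2-fold, 0 members were lower and 0 higher, where 0.591% and 0.226% of all genes were; without the limit on the adjusted p, 12 were lower and 5 higher at an unadjusted p under 0.05, beside 17.0% and 18.5% of all genes, and none of these members was beyond 2-fold. Over the members the median change was −0.06 on the log2 scale and it was 0.0047 over all genes. In 10 members every SB431542 library read less than every DMSO library, in 5 every one read more, and in 16 the groups overlapped. Here, too, the split was not counted over all genes, so it cannot set the members apart from other genes. The count of lower members went from 5 to 12, and that of higher ones from 3 to 5, without DMSO replicate 1, to 2 lower without DMSO replicate 2, and to 1 lower without any one of the SB431542 libraries, while 1 was higher without SB431542 replicate 2 or 3. The summed level of the 6 basal keratinocyte markers was 9359 to 9538 RPKM in DMSO and 6595 to 7048 RPKM with SB431542, with Krt5 and Krt14 lower, while Trp63 (log2 fold change 0.10), Itga6 (0.04), Itgb4 (0.04) and Cdh1 (−0.02) did not pass. Of the other markers, Pecam1 was lower (−0.97, adjusted p = 0.0011) and Dcn higher (0.68, adjusted p = 0.00187), and their lists summed to 5.29 to 6.74 and 2.43 to 2.63 RPKM in DMSO and to 2.74 to 2.99 and 3.68 to 4.13 RPKM with SB431542. The fibroblast sum was mostly Dcn. Col1a1, Col1a2 and Pdgfra, too low to be tested, went the other way without overlap. Their means were 0.094, 0.120 and 0.160 RPKM in DMSO and 0.039, 0.036 and 0.095 RPKM with SB431542. The part of these markers in the changes was not tested.

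**Figure D3:**
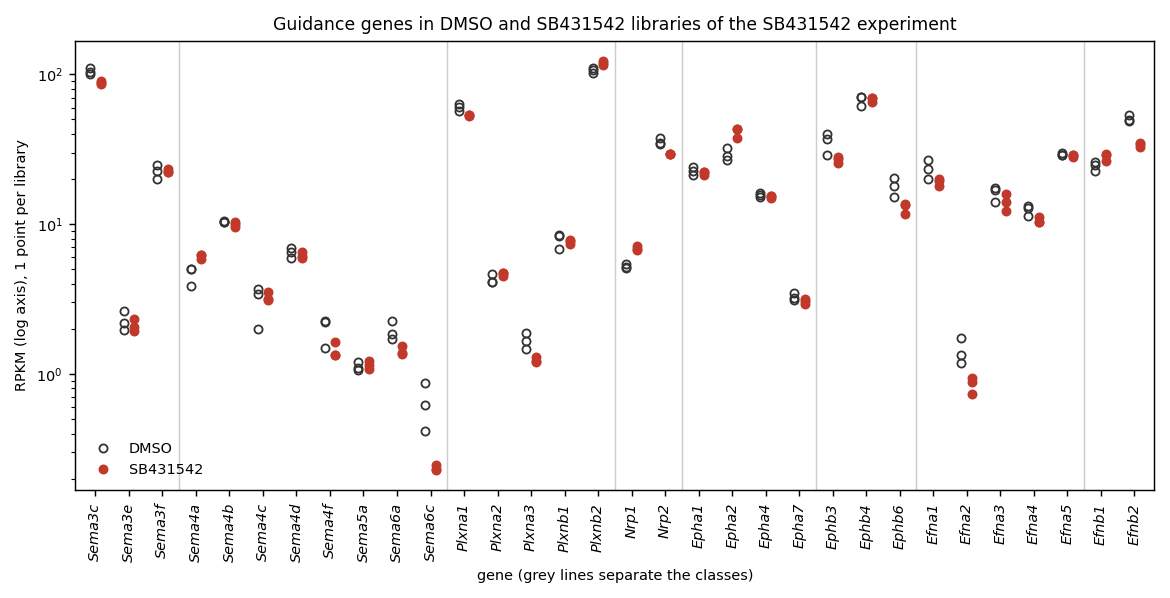
RPKM of each of the 32 members in each library of the SB431542 experiment (log axis), with open circles for the 3 DMSO libraries and filled circles for the 3 SB431542 libraries. The groups lie close together for most genes and overlap for 16 of the 31 members tested. Among those that separate are Efnb2 (33.0 to 34.6 RPKM against 48.9 to 53.8 RPKM) and Sema6c, not tested (0.229 to 0.245 RPKM against 0.419 to 0.866 RPKM).

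Efnb2 had the lowest log2 fold change of the members tested with SB431542. It was at 53.8, 48.9 and 49.8 RPKM in DMSO and 34.6, 34.1 and 33.0 RPKM with SB431542. The groups lay well apart, with a log2 fold change of −0.58 (SE 0.06, adjusted p = 0.00106). Efna2 was at 1.72, 1.33 and 1.18 RPKM in DMSO and 0.734, 0.941 and 0.887 RPKM with SB431542. Its log2 fold change was −0.49 (SE 0.13, adjusted p = 0.0399), which no longer passed without DMSO replicate 2 (0.0829) or without SB431542 replicate 1, 2 or 3 (0.133, 0.0918 and 0.112). Ephb6 was at 15.3, 18.1 and 20.3 RPKM in DMSO and 13.7, 13.4 and 11.7 RPKM with SB431542. The spread of the controls was wide, and the log2 fold change of −0.45 (SE 0.11, adjusted p = 0.0305) was lost without any one library other than DMSO replicate 1 (adjusted p up to 0.118).

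The remaining lower members were the secreted ligand Sema3c and its coreceptor Nrp2. Nrp2 was at 37.5, 34.7 and 34.4 RPKM in DMSO and 29.6, 29.4 and 29.5 RPKM with SB431542. All 3 treated libraries were below all controls, at a log2 fold change of −0.26 (SE 0.05, adjusted p = 0.0162), and the call was lost without SB431542 replicate 1, 2 or 3 (0.0699, 0.076 and 0.0735). Sema3c was at 104, 110.4 and 101 RPKM in DMSO and 86.6, 87.4 and 90.6 RPKM with SB431542. It, too, had no overlap, at −0.25 (SE 0.05, adjusted p = 0.0202), and did not pass without DMSO replicate 2 (0.0672) or SB431542 replicate 1, 2 or 3 (0.091, 0.0929 and 0.0682).

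The 3 members that were higher with SB431542 were Epha2, Nrp1 and Sema4a. Epha2 was at 26.7, 32.2 and 28.3 RPKM in DMSO and 37.3, 43.4 and 43.5 RPKM with SB431542. The treated libraries were all above, with a log2 fold change of 0.50 (SE 0.09, adjusted p = 0.0103), which missed the threshold without SB431542 replicate 2 (0.0538) or 3 (0.0565). Nrp1 was at 5.06, 5.21 and 5.38 RPKM in DMSO and 6.69, 6.78 and 7.19 RPKM with SB431542. Here replicates were tight and the call held whichever library was left out, at 0.37 (SE 0.06, adjusted p = 0.00805). Sema4a was at 3.85, 5.001 and 5.06 RPKM in DMSO and 5.87, 6.20 and 6.22 RPKM with SB431542. DMSO replicate 1 was the lowest of its group, the log2 fold change was 0.37 (SE 0.10, adjusted p = 0.0446), and it did not pass without DMSO replicate 2 (0.0626) or SB431542 replicate 1, 2 or 3 (0.108, 0.139 and 0.146).

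Of the most abundant member of each class, Efna5, Ephb4, Epha1, Sema4b, Efna1 and Plxnb2 were not called with SB431542, some of them leading in only 1 experiment. Efna5, at 29.8, 28.9 and 28.7 RPKM in DMSO and 29.2, 28.0 and 28.9 RPKM with SB431542, had a 95% interval of −0.14 to 0.09 on the log2 scale. Ephb4, at 61.7, 70.8 and 71.0 RPKM and 69.5, 69.7 and 65.0 RPKM, had one of −0.16 to 0.17. These groups overlapped for both genes. Epha1, at 21.4, 22.5 and 24.0 RPKM in DMSO and 21.1, 22.4 and 22.1 RPKM with SB431542, overlapped as well, with an interval of −0.19 to 0.09. Sema4b, at 10.5, 10.4 and 10.3 RPKM and 10.1, 10.4 and 9.64 RPKM, had an interval of −0.18 to 0.08. Efna1, a neighbour of Efna3 and Efna4, read 20.0, 23.4 and 26.7 RPKM in DMSO and 20.1, 19.5 and 17.9 RPKM with SB431542, with an interval of −0.52 to −0.03 (log2 fold change −0.27, adjusted p = 0.108).

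Plxnb2 separated between groups, at 102, 106 and 109.8 RPKM in DMSO and 119.8, 123 and 115 RPKM with SB431542, and its log2 fold change of 0.17 missed the threshold (adjusted p = 0.0597). Ephb3 (−0.38), Sema6a (−0.34), Plxna3 (−0.32), Efna4 (−0.22) and Plxna1 (−0.18) had all SB431542 libraries below all controls, and Efnb1 (0.21) all above, without passing. For the other members the groups overlapped, and their log2 fold changes lay between −0.35 for Sema4f and 0.13 for Sema4c. In order between these came Efna3 (−0.20), Epha7 (−0.08), Sema3e (−0.07), Sema4d (−0.06), Epha4 (−0.04), Plxnb1 (−0.04), Sema3f (0.01), Sema5a (0.03) and Plxna2 (0.11). Sema6c, too low to be tested, read 0.419, 0.624 and 0.866 RPKM in DMSO and 0.245, 0.232 and 0.229 RPKM with SB431542.

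**Figure D4:**
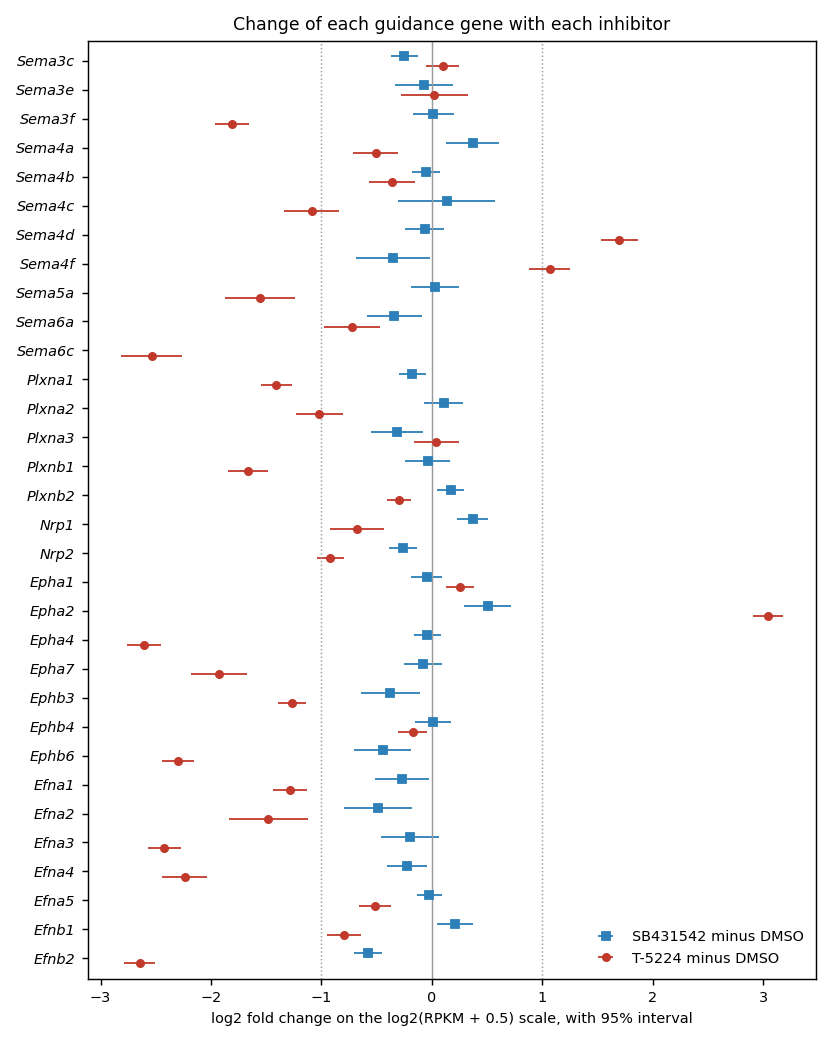
Log2 fold change of each member (inhibitor minus DMSO, on the log2(RPKM + 0.5) scale) with its 95% interval, squares for SB431542 and circles for T-5224, with dotted lines at 2-fold. The T-5224 values run from −2.64 (Efnb2) to 3.05 (Epha2), and those of SB431542 from −0.58 (Efnb2) to 0.50 (Epha2). Sema6c, not tested with SB431542, has no square.

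Side by side, Efnb2 had the lowest and Epha2 the highest log2 fold change with each inhibitor. Of the 31 members tested in both experiments, 4 (12.9%) were lower with both (Efnb2, Efna2, Ephb6 and Nrp2), beside 7.54% of the 11143 genes tested in both. Higher with both was 1 (3.23%), Epha2, beside 6.76% of all genes. Lower with SB431542 and higher with T-5224 were 0 members, beside 1.33%, and higher with SB431542 and lower with T-5224 were 2 (6.45%), Nrp1 and Sema4a, beside 1.7%. These counts rest on the SB431542 calls, which moved with single libraries as given above. Plxnb2 and Efnb1 also had all SB431542 libraries above and all T-5224 libraries below their controls, with only the T-5224 change called. Whether the response to one inhibitor differed from that to the other was not tested, since each inhibitor was used in an experiment and at a dose of its own.

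Genes that carry the signals of these receptors were read from lists of 24 genes each. Of the semaphorin signalling list (R-Ras and Rnd GTPases, CRMP and MICAL proteins, exchange factors and coreceptors), 18 were tested with T-5224, where 13 were lower and 4 higher, beside 39.6% and 39.1% of all genes tested. More than 2-fold, 0 were lower and 3 higher, beside 10.9% and 10.3% of all genes. Only those 3 are described for T-5224, so they run against the direction of most of the list. Rnd1, a GTPase that binds plexins, was at 0.832 and 0.528 RPKM in DMSO and 11.0 and 10.3 RPKM with T-5224, all treated libraries being above. It had a log2 fold change of 3.25 (SE 0.13, adjusted p = 1.05e-08). Dpysl2, which encodes the semaphorin mediator CRMP2, had one of 1.07 (adjusted p = 2.82e-06), and L1cam, an adhesion molecule that associates with neuropilin-1, one of 1.01 (adjusted p = 3.52e-05). Of 19 tested with SB431542, 5 were lower and 1 higher, beside 9.81% and 9.68% of all genes. These were, chosen after their values were seen, Rras (−0.52), Rnd3 (−0.38), Mical3 (−0.35), Dpysl3 (−0.29) and Mras (−0.26), and the higher one was L1cam (0.92, adjusted p = 0.0011). The median log2 fold change of this list was −0.46 with T-5224 and 0.01 with SB431542.

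Of the Eph signalling list (exchange factors, adaptors, Src and Abl kinases and the protease Adam10), 8 of 19 tested were lower and 6 higher with T-5224, shares near the 39.6% and 39.1% of all genes, with a median of −0.02. More than 2-fold, 2 were higher and 0 lower, beside 10.3% and 10.9% of all genes. Ngef, the exchange factor ephexin-1 that acts downstream of EphA receptors, was at 3.01 and 3.29 RPKM in DMSO and 11.3 and 10.1 RPKM with T-5224, a log2 fold change of 1.61 (SE 0.09, adjusted p = 1.21e-07). Fyn, a Src-family kinase, was at 13.0 and 13.1 RPKM in DMSO and 29.0 and 29.2 RPKM with T-5224, at 1.13 (SE 0.06, adjusted p = 7.40e-08). Both genes had treated libraries clear of the controls. With SB431542, 0 of 22 were lower and 2 higher (limma), beside 9.81% and 9.68% of all genes, with 0 beyond 2-fold. They were Ngef (0.63, adjusted p = 0.00454) and, chosen after its values were seen, Abl2 (0.54, adjusted p = 0.0143), and the median was −0.04.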

How the data were processed

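RNA-seq libraries of ASZ001 cells, described by the study as biological replicates, were made with a stranded mRNA kit. The authors aligned reads to mm9 with TopHat and made the deposited RPKM with HOMER (analyzeRepeats.pl), 1 table per experiment. Whether counting used strand is not given in the sources used here. The authors' own comparison used DESeq2 with cutoffs at 2-fold and p; its values were not used. Columns of values left out were 0. Date-like entries in place of a symbol were dropped (22 and 23 rows). The DMSO columns of the T-5224 table carry numbers of their own and were used as a group.

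Genes with a mean of at least 0.5 RPKM in a table (11509 and 11516) were tested with limma 3.58.1 (R 4.3.3) on log2(RPKM + 0.5), taking variances moderated along a trend on mean expression, and Benjamini-Hochberg adjustment over all of them. P-values weigh the difference between groups against the moderated spread between these libraries, all of 1 cell line. Depth was worked out from values that fall on whole-read steps (within 0.05 read). The test was checked on simulated data. The members and the lists were chosen with earlier results of these data known. Every member is named, with the value in each library for those past 2-fold with either inhibitor, past the test with both, or most abundant in a class. Other genes are named from the lists where past 2-fold. Positions come from GENCODE on NCBIM37 (mm9), and Efna5, with 2 gene records there, is given without one. Promoters are from RefSeq (GRCm38.p6). Alternatives were pseudocounts of 0.1 and 1, filters of none and of 1 RPKM, a limit of 1.5-fold, unadjusted p, median centring, quantile normalization, no trend, a replicate block and each library left out in turn.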

Additional observations from a re-analysis of the deposited data

How the results depend on the processing

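With T-5224, the count of lower members was 23 to 25 and that of higher ones 4 to 5 under all alternatives run, and members beyond 2-fold were 14 to 16 lower (20 at a limit of 1.5-fold) and 2 to 3 higher. With SB431542, 5 members were lower and 3 higher. An unadjusted p under 0.05 gave 12 lower and 5 higher, and median centring gave 5 higher. Leaving out 1 library gave 1 to 12 lower and 1 to 5 higher. Over all genes, leaving out 1 library moved the SB431542 counts of 1129 lower and 1114 higher to between 433 and 1954 and between 294 and 2158, and an unadjusted p gave 1958 and 2124. Genes beyond 2-fold with SB431542, 68 lower and 26 higher, became 109 and 43 with a pseudocount of 0.1, 12 higher with a pseudocount of 1, and 284 and 141 at 1.5-fold; with T-5224 a limit of 1.5-fold turned 1259 and 1183 into 2562 and 2480. Apart from left-out libraries and the replicate block, lost with SB431542 were the calls of Efna2 (adjusted p = 0.0666 without a filter, 0.0505 with median centring, 0.0708 with quantile normalization), Ephb6 (0.0611 without a filter) and Sema4a (0.0897 without a filter), and with T-5224 that of Ephb4 (0.0604 without a filter, 0.0738 without the trend), all by limma. Those of Efnb2 and Nrp1 with SB431542 held under every alternative run.

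Direction reversed only for changes that did not pass. Quantile normalization gave −0.0365 for Ephb4 and −0.0089 for Sema3f with SB431542 and −0.0001 for Sema3c with T-5224. Leaving out 1 library gave, with SB431542, −0.0596 to 0.0413 for Ephb4, −0.133 to 0.0113 for Plxnb1, −0.151 to 0.0228 for Sema3e, −0.0631 to 0.0826 for Sema3f and −0.0995 to 0.274 for Sema4c, and −0.0473 to 0.0943 for Sema3e with T-5224. The cause was not tested.

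In the SB431542 experiment, deviations from the group means had correlations of −0.14, 0.12 and −0.09 between libraries of the same replicate number. Such deviations cancel out within a group, so these correlations cannot decide whether the numbers pair the libraries. A replicate block gave 1 lower and 2 higher members, and 713 lower and 547 higher genes of all. In the T-5224 experiment the sample labels give the groups no number in common, while the table numbers its columns 1 and 2 in each group. Same-numbered columns had a correlation of 0.058, and no block was fitted there.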

Other observations

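Other guidance families, from a list of 22 genes, were read beside the members. With T-5224, 7 of 12 tested were lower and 3 higher (limma), beside 39.6% and 39.1% of all genes, with a median log2 fold change of −0.70. Beyond 2-fold, the lower genes were Flrt2 (−1.95), Ntn4 (−1.57), Robo1 (−1.42), Rgma (−1.37) and Flrt3 (−1.22), and the higher ones Flrt1 (1.19) and Slit2 (1.06), where 10.9% and 10.3% of all genes passed this limit. Flrt2 and Flrt3 encode adhesion proteins that bind Unc5 receptors, and Robo1 is a receptor of the Slit ligands. Slit2 went from 1.35 and 1.32 to 3.38 and 3.23 RPKM, while Robo1 went from 8.85 and 9.84 to 3.32 and 3.03 RPKM, with no overlap for either gene. With SB431542, 3 of 14 were lower and 1 higher, beside 9.81% and 9.68% of all genes. Flrt2 was the only gene of this list beyond 2-fold there, at 42.7, 40.7 and 39.2 RPKM in DMSO and 15.4, 15.4 and 16.01 RPKM with SB431542 (log2 fold change −1.36, SE 0.05, adjusted p = 2.85e-05, limma). The other called genes, named after their values were seen, were Rgma (−0.41), Ntn4 (−0.22) and, higher, Flrt1 (0.39).

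Neuropilins also bind VEGF proteins. Of 5 VEGF ligands and receptors tested with T-5224, Vegfa was higher, from 43.5 and 39.6 to 109 and 105 RPKM (log2 fold change 1.36, SE 0.06, adjusted p = 2.23e-08, limma). Vegfd was lower, from 3.15 and 3.75 to 0.956 and 0.499 RPKM (−1.71, adjusted p = 8.75e-06, limma), where 39.6% of all genes tested were lower and 39.1% higher. In the same libraries Nrp1 and Nrp2 were lower, as described above. With SB431542, 1 of 6 was lower (Vegfd, −0.45, adjusted p = 0.0401, limma) and 1 higher (Vegfb, 0.37, adjusted p = 0.0125), beside 9.81% and 9.68% of all genes. Vegfb was named after its values were seen.

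The limits are those of 1 cell line, 1 dose and 1 time point per inhibitor, and 2 or 3 libraries per group. RPKM is scaled to the depth of each library, so a change in total RNA per cell would not be seen. Protein levels and receptor activity were not measured in these libraries.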
